A study of Schizosaccharomyces pombe with 6 samples.

Results

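The regions described here are the strands that lie opposite to transcribed stretches of the fission yeast (Schizosaccharomyces pombe) genome. In the densely tiled part of the array, consecutive probe numbers alternate between the strands, with odd numbers on one and even numbers on the other. A probe counted as on when its input signal was well above background, by the scanner software's own call, on all 6 arrays. A stretch was a run of at least 20 on probes of one strand, in which single off probes were bridged. The antisense region of a stretch holds the other-strand probes numbered between its first and last probe, and it was kept when at most 20% of them were on. Of 1130 stretches, 804 (71.2%) had such an antisense region, and 326 had more on probes on the other strand than the limit allows. The 804 regions are opposite 416 stretches on odd probes and 388 on even probes. They hold 25973 probes, of which 2260 (8.70%) were on. Their stretches had 20 to 139 probes with a median of 29, and 180 of them, with 40 or more probes, are called long and the other 624 medium. In 50 regions the antisense strand overlapped part of another stretch, and 98 regions had no on probe at all.

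RNA was purified with 3 baits, Red1-FTP (strain p919), Mtl1-FTP (strain p920) and Red5-FTP (strain p1160), each with a Flag-TEV-protein A tag (FTP) at its C-terminus, where TEV is a protease site. All strains were grown in YEA, a rich medium, and 2 arrays per bait were hybridised, which the labels call biological replicates. The RNA bound to the bait (the IP) was labelled with Cy5 and the total RNA of the same strain (the input) with Cy3. All groups carry a tagged protein, the dyes were the same way round on each array, and a purification without a tagged bait was not analysed here.

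Genes in fission yeast are often transcribed at low level on the wrong strand as well. Such antisense RNAs belong to the cryptic unstable transcripts (CUTs), which are degraded by the nuclear exosome soon after they are made and are therefore scarce in total RNA. MTREC is a nuclear complex that hands RNAs to the exosome. Its core consists of Mtl1, a helicase related to Mtr4, and the zinc finger protein Red1, and Red5 is another zinc finger subunit. An antisense RNA that is bound before it is degraded could be seen in the IP where it is not seen in the input, so detection was followed in both channels.

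Of all densely tiled probes, 47.0 to 57.3% per array were detected (well above background) in the input, most on Mtl1-FTP replicate 2, and 55.3 to 67.3% in the IP. Of 810 negative-control spots, 0.494 to 1.23% per array were called well above background in the IP. The replicate 1 arrays shared slide 1, and of the replicate 2 arrays Red1-FTP and Red5-FTP shared slide 2, while Mtl1-FTP was alone on slide 3. Log2 ratios are of IP over input, centred on the median probe of each array. The number of arrays limits the precision, and probes of a region are not replicates. The p-values measure only the spread between these arrays, of which those on one slide may share a technical deviation.

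Antisense regions were more often detected in the IP than in the input. Among member probes that were not on, the IP was well above background at 32.3 and 30.2% (Red1-FTP), 25.1 and 30.1% (Mtl1-FTP) and 18.6 and 39.95% (Red5-FTP). The input was detected at 8.90 and 4.80%, 8.11 and 25.4%, and 10.8 and 9.18% of the same probes, in the same order of baits and replicates. IP detection thus exceeded input detection on every array, least on Mtl1-FTP replicate 2, where the input was also detected most often. This order was not particular to antisense regions. Probes that were not on in quiet places (defined below) had it on every array, at 19.3 to 37.2% in the IP and 6.64 to 19.3% in the input. Over all member probes, 54.3 to 70.04% per array were detected in neither channel. Most values behind the log2 ratios of antisense regions are therefore from probes below the call in both channels. In the IP alone 11.4 to 28.7% of member probes were detected per array, and in the input alone 0.697 to 7.33%. The rule that chose the regions keeps input detection low, so this contrast is a description and was not tested. On the stretches themselves, 91.2 to 98.9% of the probes were detected in the IP.

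Each region was then summarised over all its probes and all arrays. IP detection per region ranged from 0.794 to 88.9%, with a median of 34.9% and quartiles of 24.4 and 46.9%. In 150 regions more than 50% of the probe calls were positive, and in 37 regions less than 10% were. Input detection per region had a median of 18.7% and reached 52.3%. The log2 ratio ranged from -0.99 to 2.53 with a median of 0.40 and quartiles of 0.09 and 0.76, whereas the stretches opposite had a median of -0.10. The ratio was above that of the region's own stretch on 6 of 6 arrays in 533 regions, and below it on 6 of 6 arrays in 31. The rule asks for a high input on the stretch and a low one on the antisense strand, and the input is the denominator of the ratio, so this order was favoured by the choice and was not tested. Array medians of the ratio were 0.49 and 0.76 (Red1-FTP), 0.43 and 0.15 (Mtl1-FTP) and 0.16 and 0.42 (Red5-FTP). The spread between replicates of a bait was therefore about as wide as that between baits. The rule used a limit of 20% on probes, and the 119 regions just inside it (15 to 20% on) had array means of 0.36 to 0.96 in log2 ratio and of 23.6 to 48.8% in IP detection. The 92 regions just outside it (20 to 25% on) had 0.45 to 1.05 and 27.6 to 53.1%.

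Whether being opposite to a transcribed stretch mattered was asked by comparison with quiet places, which are 875 blocks of 20 consecutive probe numbers with at most 20% on probes on each strand and outside every stretch. Only probes whose input was detected on no array were used, 16346 opposite stretches and 11947 in quiet blocks. Opposite stretches the IP was detected at 21.7 and 20.4% of these probes with Red1-FTP, 15 and 15.2% (Mtl1-FTP) and 9.24 and 28.3% (Red5-FTP). In quiet blocks it was detected at 25 and 11.3% (Red1-FTP), 14.9 and 20.1% (Mtl1-FTP) and 18.5 and 25.9% (Red5-FTP). The antisense probes were ahead on 3 arrays and behind on 3, and both sets lay far above the negative-control spots on every array. The difference was -0.98 ± 6.38 percentage points (SD, n = 6 arrays), and a sign-flip permutation test (exact, two-sided) gave a p of 0.688 (adjusted 0.833 over 10 contrasts). It was -4.18 on slide 1, 5.74 on slide 2 and -4.86 on slide 3. The log2 ratio gave the same picture on regions picked on arrays of the opposite replicate number, at 0.50 ± 0.21 opposite stretches and 0.55 ± 0.14 in quiet blocks, with a difference of -0.05 ± 0.31 (exact p = 0.75, adjusted 0.833). The direction of the detection difference depended on the setting. The difference was 9.10 ± 9.60 percentage points when a probe counted as detected by the software's positive and significant call (exact permutation p = 0.0938), it turned in 3 other alternatives, and it turned without Mtl1-FTP replicate 2 (0.29) or Red5-FTP replicate 1 (0.82). That of the ratio turned without Red5-FTP replicate 1 (0.01).

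**Figure D1:**
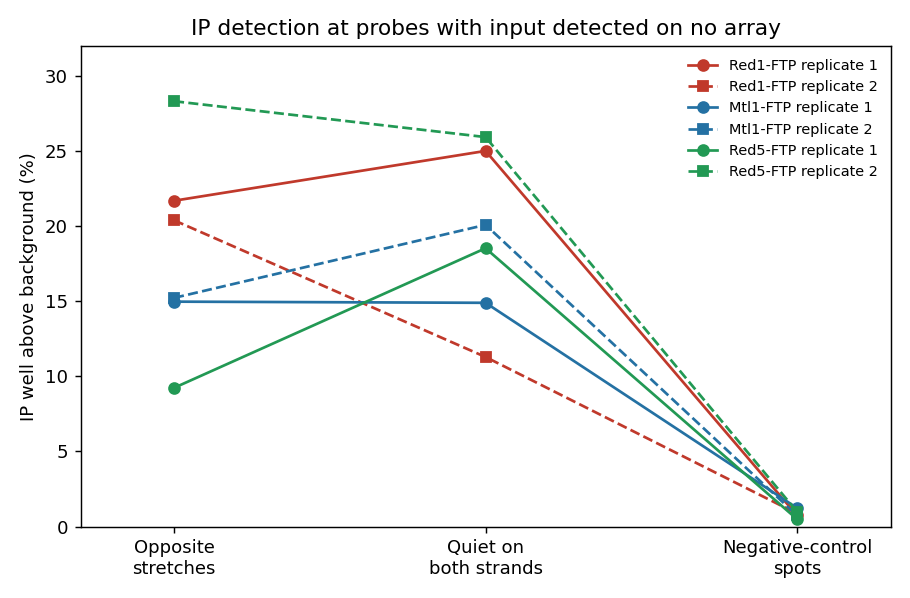
Percentage of probes with the IP well above background (vertical axis) for antisense probes opposite stretches, probes of quiet blocks, and negative-control spots, with a line per array, coloured by bait and dashed for replicate 2. The first 2 sets hold only probes whose input was detected on no array. They cross between arrays, at 9.24 to 28.3% and 11.3 to 25.9%, and the control spots lie at 0.494 to 1.23%.

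Detected antisense probes were not scattered evenly. Of the 16346 probes, 1065 (6.52%) were detected in the IP on all 6 arrays and 66.9% on none, against 8.02 and 67.0% in quiet blocks. A probe was detected more often when its neighbour on the same strand was, at 27.5 to 47.8% per array after a detected neighbour and at 6.31 to 18.2% after an undetected one. These values pool all regions, whose IP detection ranged from 0.794 to 88.9%. What part differences between regions have in them was not tested, and no such values were taken for quiet blocks. The arrays had similar profiles over the 804 regions, with a Pearson r of the log2 ratio of 0.83 to 0.89 for the 3 pairs of the same bait and of 0.67 to 0.92 for the 12 pairs of different baits. These correlations are across regions, which are not independent replicates.

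IP detection on the antisense strand was higher opposite the stretches of highest input than opposite those of lowest input. For this comparison the members were divided into 3 equal groups by the mean input signal of the stretch, measured on arrays of the opposite replicate number. Opposite the stretches of highest input, the IP was detected at 42.4 and 43.2% of the antisense probes that were not on with Red1-FTP, 33.9 and 37.1% (Mtl1-FTP) and 23.8 and 51.4% (Red5-FTP). Opposite the stretches of lowest input it was detected at 25.1 and 20.3% (Red1-FTP), 19.1 and 24.9% (Mtl1-FTP) and 15 and 30.7% (Red5-FTP). Although the arrays of a set overlap with those of the other, every array on its own was higher opposite the stretches of highest input. The means were 38.7 ± 9.40% and 22.5 ± 5.53%, and the difference was 16.1 ± 5.25 percentage points (SD, n = 6 arrays, higher on 6 of 6, exact permutation p = 0.03125, the smallest 6 arrays can give, adjusted 0.0446). It was 13.7, 21.8 and 12.2 points on slides 1, 2 and 3. The log2 ratio moved the same way, with 0.73 ± 0.32 opposite the stretches of highest input and 0.28 ± 0.15 opposite those of lowest input, a difference of 0.44 ± 0.19 (higher on 6 of 6 arrays, exact permutation p = 0.03125, adjusted 0.0446). Arrays of whole cultures do not separate more antisense RNA per cell from more cells that hold it.

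Most of this difference lay in the upper part of the range of input levels. With members divided into 10 groups by the mean input over all arrays, IP detection was 23.4, 18.7, 19.3, 24.5, 13.8 and 28.8% in the lowest group (Red1-FTP, Mtl1-FTP and Red5-FTP, replicates 1 and 2 of each), and it was 28.3, 25.9, 21.4, 26.6, 15.8 and 37.4% in group 6. In group 10 it was 55.3, 57.8, 45.7, 47.1, 31.5 and 64.1%. Groups 1 to 6 had no steady order and spanned 22.1 to 30.1% and 18.7 to 27.0% (Red1-FTP), 15.9 to 23.2% and 22.9 to 28.8% (Mtl1-FTP) and 13.0 to 18.9% and 28.8 to 37.4% (Red5-FTP). On every array group 5 was below group 4, and group 10 was above every other group. Input detection on the same antisense probes was also higher in group 10 on every array. It was 8.52, 5.15, 7.96, 23.9, 10.3 and 8.61% in the lowest group and 11.6, 7.55, 9.06, 29.0, 13.1 and 15.8% in group 10, and the limit on on probes keeps it low in all groups. Over the 804 regions the input level of the stretch had a Spearman rho of 0.44 with IP detection on the antisense strand, of 0.46 with its log2 ratio and of 0.20 with its input detection. The IP signal of the stretch itself had a rho of 0.58 with the IP signal of the antisense strand, the closest of these relations. Both strands are read on the same array, so these values share its depth and background, and what part the IP signal of the stretch has in the antisense signal was not tested.

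**Figure D2:**
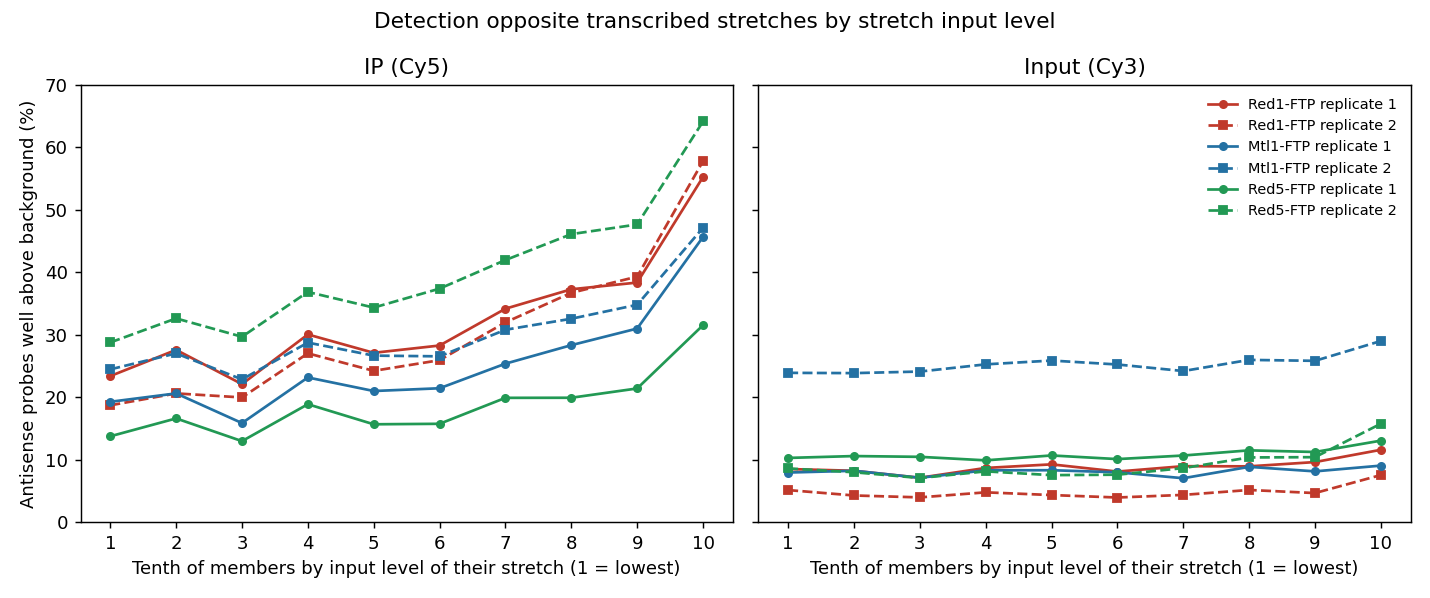
Percentage of antisense probes that were not on with the IP (left) or the input (right) well above background, for members in 10 equal groups by the mean input level of their stretch, with a line per array, coloured by bait and dashed for replicate 2. IP detection reached 31.5 to 64.1% in group 10, against 13.8 to 28.8% in group 1, while input detection was 7.55 to 29.0% in group 10 and 5.15 to 23.9% in group 1, higher in group 10 on each array.

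The relation was also seen among antisense probes without any input call. Among probes with input detected on no array, the IP was detected opposite the stretches of highest input at 30.5 and 32.4% (Red1-FTP), 21.7 and 20.4% (Mtl1-FTP) and 12.4 and 39.2% (Red5-FTP). Opposite the stretches of lowest input it was detected at 15.9 and 12.0%, 11.1 and 12.0%, and 7.14 and 20.2%. The log2 input signal of these probes, though below the call, was also higher opposite the stretches of highest input on every array. It was -1.89 against -1.91 on Mtl1-FTP replicate 1, the closest pair, and -2.12 against -2.26 on Red5-FTP replicate 2, the widest. What part this has in the relation was not tested. The relation also held within single stretches, in a comparison chosen after the data were examined. Antisense probes whose neighbouring stretch probes had an input above the median of their own stretch were detected in the IP at 33.2 ± 8.39%, and the others at 25.7 ± 6.08%. The difference was 7.50 ± 2.83 percentage points (higher on 6 of 6 arrays, from 3.39 to 10.6 points, exact permutation p = 0.03125, adjusted 0.0446). The log2 ratio differed by 0.17 ± 0.11 in the same direction on 6 of 6 arrays (exact permutation p = 0.03125, adjusted 0.0446), but by -0.01 when only probes detected in at least 1 channel were used. The ratio difference also no longer passed under 4 other alternatives.

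Opposite long stretches the antisense strand was detected less often than opposite medium ones. With long stretches the IP was detected at 26.9 and 28.3% of the antisense probes that were not on with Red1-FTP, 22.6 and 25% (Mtl1-FTP) and 13.5 and 34.5% (Red5-FTP). With medium stretches it was detected at 35.4 and 31.3% (Red1-FTP), 26.6 and 33.0% (Mtl1-FTP) and 21.5 and 43.1% (Red5-FTP). Each array was lower for the long stretches. The difference was -6.71 ± 2.53 percentage points (lower on 6 of 6 arrays, exact permutation p = 0.03125, adjusted 0.0446) and that of the log2 ratio -0.24 ± 0.09 (0.31 ± 0.28 and 0.55 ± 0.20, same test and p-values). The rho between the input level of a stretch and its number of probes was 0.11. What part input level has in the difference by length was not tested. Within the stretches of highest input, antisense probes were detected at 34.8, 40.5, 30.7, 30.9, 16.0 and 44.2% opposite long stretches and at 47.1, 45.1, 36.0, 40.9, 28.5 and 55.9% opposite medium ones (arrays ordered by bait as above), and long was also below medium on every array for the other levels of input.

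Detection also varied along the stretch. The ends of a stretch are called side A and side B, where side A has the lower numbers for stretches on odd probes and the higher numbers for those on even probes. Stretches that face each other with their A sides were separated by a median gap of 30.5 probes per strand (283 gaps), and those that face with their B sides by 21.5 (220 gaps). The files used here do not say which side is the 5′ end. Each antisense region was divided into 10 bins, and the first 3 bins from side A were set against the last 3. At the side A end the IP was detected at 31.3 and 27.5% of the probes that were not on with Red1-FTP, 23.8 and 28.6% (Mtl1-FTP) and 18.8 and 36.5% (Red5-FTP). At the side B end it was detected at 33.2 and 30.0%, 25.6 and 32.7%, and 19.5 and 41.4%. The difference was -2.64 ± 1.55 percentage points and negative on 6 of 6 arrays (exact permutation p = 0.03125, adjusted 0.0446). The bins between the ends were not alike on all arrays. With Red1-FTP replicate 2 detection was 23.6% in bin 1, 34.0% in bin 8 and 25.9% in bin 10, and with Red5-FTP replicate 2 it was 34.2, 43.2 and 39.9% in these bins, whereas with Red5-FTP replicate 1 it was lowest between the ends, at 19.3% in bin 1, 16.9% in bin 4 and 20.6% in bin 10. The difference between the ends was not kept among probes with input detected on no array, where it was -0.49 (exact permutation p = 0.438). The log2 ratio at the ends differed by 0.00 ± 0.05 (A minus B, positive on 3 of 6 arrays, exact permutation p = 0.906), with slide 1 at 0.04 and slides 2 and 3 at -0.04 and -0.05. It was negative on 6 of 6 arrays (exact permutation p = 0.03125) with stretches of 30 or more probes (-0.053), without bridging (-0.043) and with stretches chosen from all 6 arrays (-0.024), and it turned positive in 6 other alternatives.

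The strand opposite to a stretch was also followed past the ends of the stretch, where the limit on on probes does not apply. The first 10 antisense probes inside side A were detected in the IP at 33.3 and 28.3% (Red1-FTP), 24.9 and 30.3% (Mtl1-FTP) and 20.5 and 38.9% (Red5-FTP). The 10 probes outside side A on the same strand were detected at 43.3 and 27.9% (Red1-FTP), 34.3 and 42.6% (Mtl1-FTP) and 35.2 and 43.5% (Red5-FTP). Inside was thus lower than outside on 5 of 6 arrays, by 4.64 to 14.7 percentage points, and Red1-FTP replicate 2 was 0.39 points higher inside. At side B the inner probes were at 34.9, 30.9, 26.7, 34.5, 21.5 and 43.6% and the outer ones at 45.2, 28.8, 35.1, 43.9, 35.6 and 48.3%, again with only Red1-FTP replicate 2 higher inside. Detection around side A was low at the border itself. The first probe inside was detected at 19 to 32% per array and the first outside at 17.3 to 30.5%, while the fourth outside was detected at 30.4 to 49.3%. On probes were left out on both sides of each end, and this comparison was not tested.

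**Figure D3:**
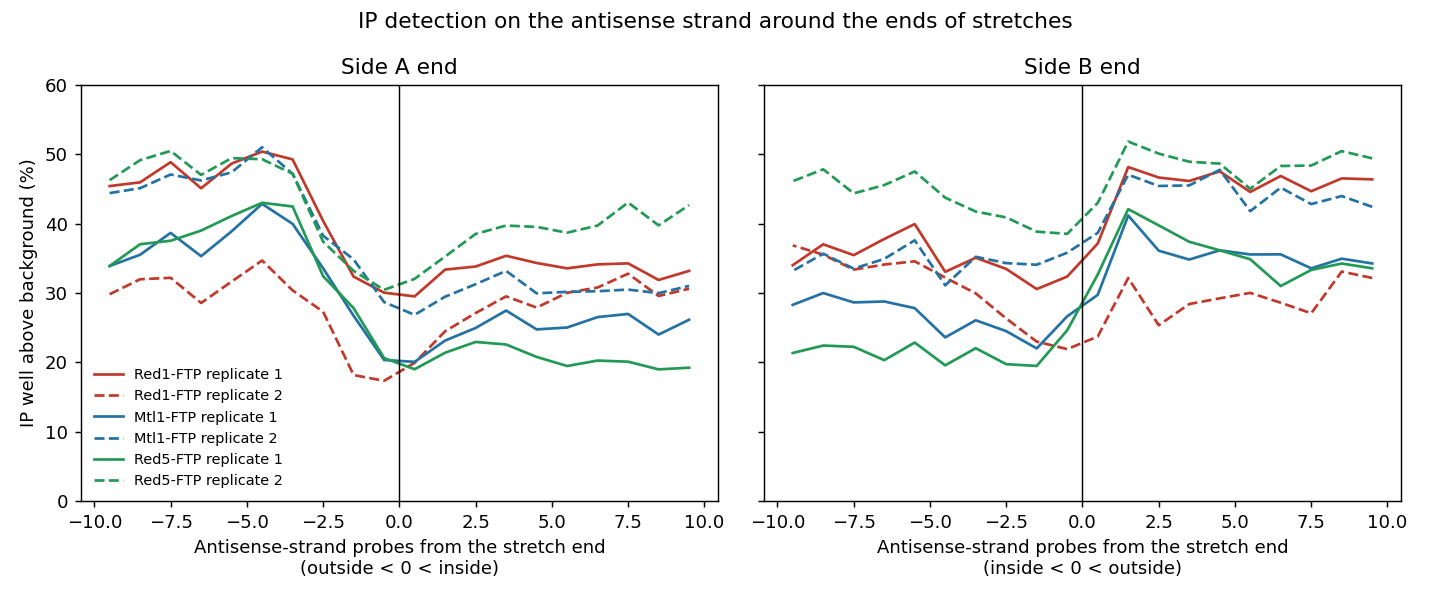
Percentage of antisense-strand probes that were not on with the IP well above background, by distance in probes from the side A end (left) and the side B end (right) of the stretch, with a line per array, coloured by bait and dashed for replicate 2. On 5 of 6 arrays detection was lower inside than outside both ends. At the side A border the first probe outside was at 17.3 to 30.5%. On Red5-FTP replicate 1 this was no dip from the inside, with 20.6% there and 19.2% at the tenth probe inside.

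Discrete antisense RNAs were looked for as runs of at least 10 antisense probes detected in the IP on all 6 arrays, with single misses bridged. On probes counted towards a run as well, so a run can hold probes whose input was detected on all 6 arrays. There were 53 such runs in 51 regions (6.34% of the 804). Runs were looked for only in these regions, so no share for other strands can be set beside this. They had 10 to 28 probes with a median of 12, so most covered only part of their region. Of these, 5 runs reached side A, 9 reached side B and 39 reached neither, and the middle of the run was nearer to side A for 23 and nearer to side B for 30. Regions with a run numbered 4 of 268, 15 of 268 and 32 of 268 opposite the stretches of lowest, middle and highest input, for which the median input level was 2.12, 2.77 and 3.78 (log2, relative to the median probe of the array). The input was detected at 11.9 to 100% of the calls within a run, with a median of 38.5%. Log2 ratios of the runs lay between -0.09 and 3.85 with a median of 1.99, and 45 of the 53 were above 1. The runs were chosen by IP detection on these same arrays, in regions where the rule keeps input detection low. High ratios of runs were therefore favoured by the choice and were not tested. The number of regions with a run, 51, depended most on the detection call, and it was 364 with the positive and significant call. It was 17 with regions of at most 10% on probes, 1 in regions without any, 29 with stretches of 30 or more probes, 92 without Red5-FTP replicate 1, and 99 when stretches were chosen on replicate 1 arrays and the runs called on replicate 2 arrays.

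The longest runs had 28 probes and were found in a pair of regions. Opposite the stretch sp40c_73071 to sp40c_73141, of 36 probes, the run covered sp40c_73076 to sp40c_73130 and left 2 antisense probes free at side A and 5 at side B. Log2 ratios of this run were 2.65 and 3.22 (Red1-FTP), 2.61 and 1.81 (Mtl1-FTP) and 2.37 and 2.32 (Red5-FTP), and its input was detected in 26.2% of the calls. Opposite sp40c_90804 to sp40c_90876 the run, sp40c_90817 to sp40c_90871, had log2 ratios of 2.76 and 3.04 (Red1-FTP), 2.80 and 1.95 (Mtl1-FTP) and 2.25 and 2.40 (Red5-FTP). All arrays of both runs were thus well above 1, and the lowest of them was Mtl1-FTP replicate 2. The next runs had 23 probes each. The run opposite sp40c_133430 to sp40c_133550 lay 6 probes from side A and 31 from side B of a region of 60 probes, while that opposite sp40c_54786 to sp40c_54904 lay 34 from side A and 2 from side B of a region of 59 probes. Over these regions as wholes the mean log2 ratios were 1.67 and 1.57 on the antisense strand, and -0.31 and -0.33 on the stretches, so that the strands differed in sign. This order was favoured by the choice of regions and runs and was not tested.

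**Figure D4:**
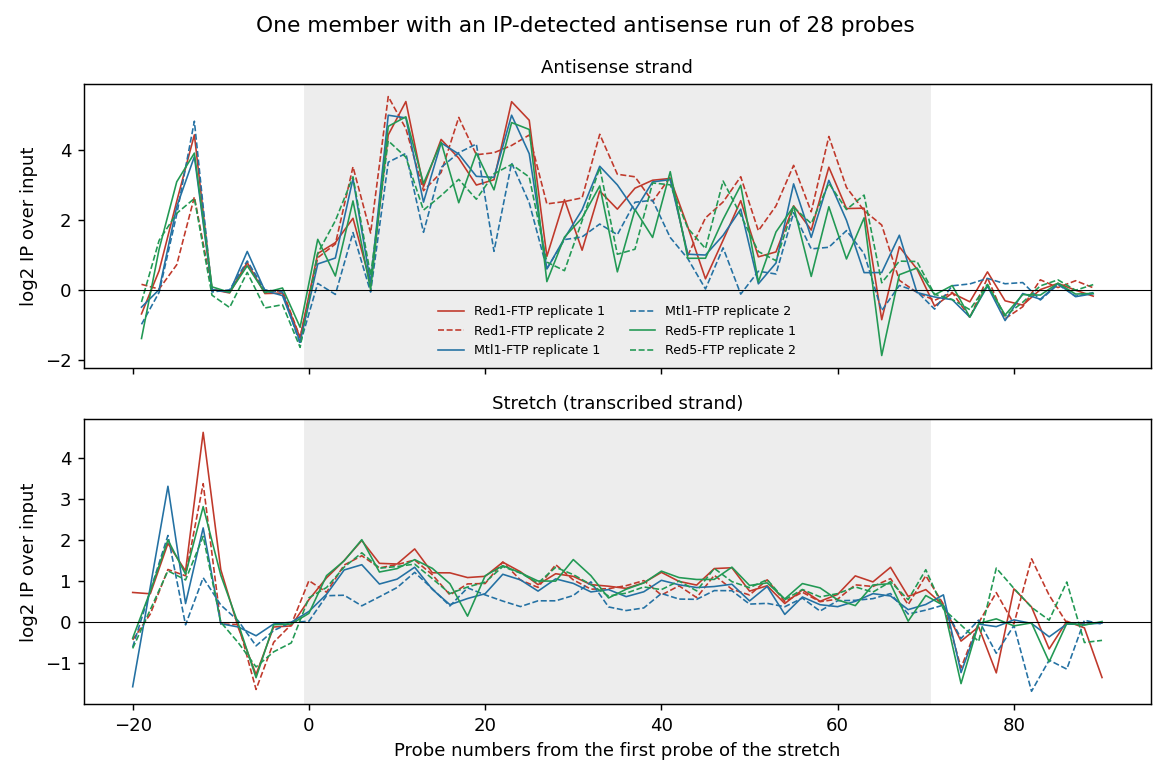
Log2 ratio of IP over input for each probe of the antisense strand (top) and of the stretch sp40c_73071 to sp40c_73141 (bottom), by probe number from the first probe of the stretch, with a line per array, coloured by bait and dashed for replicate 2. The shaded span is the stretch. The antisense run of 28 probes lies within it, with run means of 1.81 to 3.22 per array.

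Enrichment of whole regions was tested with limma on 4010 regions, which hold both strands of all 1130 stretches and of the quiet blocks. Of these regions 46.0% were enriched and 16.9% depleted over the baits at an adjusted p under 0.05. Of the 804 antisense regions, 480 (59.7%) were enriched and 21 (2.61%) depleted. Of the stretches, 22.6% were enriched and 33.4% depleted. Quiet blocks, at 51.8 and 13.9%, and the opposite strands over the limit, at 62.3 and 10.74%, had shares of enriched regions closer to that of the antisense regions. The median log2 ratio was 0.40 over antisense regions, 0.34 over quiet blocks and 0.22 over all regions. The calls are descriptions, since the input that chose the regions is the denominator of the ratio. They depend on the array centre. With the mean of all probes as the centre, 33.2% of the antisense regions were enriched and 23.3% depleted, and with normexp background correction and the median as the centre 30.7 and 8.08% were.

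The most enriched antisense region lay opposite the stretch sp40c_9302 to sp40c_9352. Its log2 ratios were 2.94 and 3.70 (Red1-FTP), 1.98 and 2.20 (Mtl1-FTP) and 1.67 and 2.71 (Red5-FTP), with a mean of 2.53 and a standard error of 0.16 (limma adjusted p = 8.95e-06). The IP was detected in 75.3% of the calls on its 25 probes and the input in 21.3%. Its stretch was more enriched still, with a mean of 3.72, which set it apart from the other regions of high ratio. The next 7 regions had means of 2.17 to 2.3 and stretches at 0.20 to 1.36. Among them the region opposite sp40c_23966 to sp40c_24004 had log2 ratios of 2.48 and 2.55 (Red1-FTP), 1.72 and 2.0 (Mtl1-FTP) and 2.08 and 2.3 (Red5-FTP). Its stretch was the most abundant of these 7 in the input, at 6.02 in log2 relative to the median probe, and had a ratio of 0.25. By contrast, the stretch opposite the region of second-highest mean, sp40c_59594 to sp40c_59638, was at 2.17 in the input, and that region had log2 ratios of 2.09 and 2.70 (Red1-FTP), 2.39 and 2.49 (Mtl1-FTP) and 1.37 and 2.77 (Red5-FTP). The remaining 5 lay opposite sp40c_90804 to sp40c_90876, sp40c_54027 to sp40c_54065, sp40c_92064 to sp40c_92126, sp40c_73071 to sp40c_73141 and sp40c_42169 to sp40c_42235, with IP detection of 71.9 to 88.9%.

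Depletion of an antisense region was rarer and smaller. The lowest region lay opposite sp40c_103245 to sp40c_103315, with log2 ratios of -1.05 and -0.46 (Red1-FTP), -0.91 and -1.30 (Mtl1-FTP) and -1.14 and -1.09 (Red5-FTP) (mean -0.99, standard error 0.11, limma adjusted p = 0.000182). In this region the input was detected in 34.3% of the calls and the IP in 16.2%, the reverse of the usual order, and its stretch was also depleted, at -1.63. The regions opposite sp40c_18633 to sp40c_18691, sp40c_133123 to sp40c_133173 and sp40c_25158 to sp40c_25212 followed, with means of -0.65, -0.56 and -0.50 (limma adjusted p = 0.00161, 0.00272 and 0.00272) and stretches at -0.85, -0.41 and -0.57. In all 4 the input was detected more often than the IP.

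**Figure D5:**
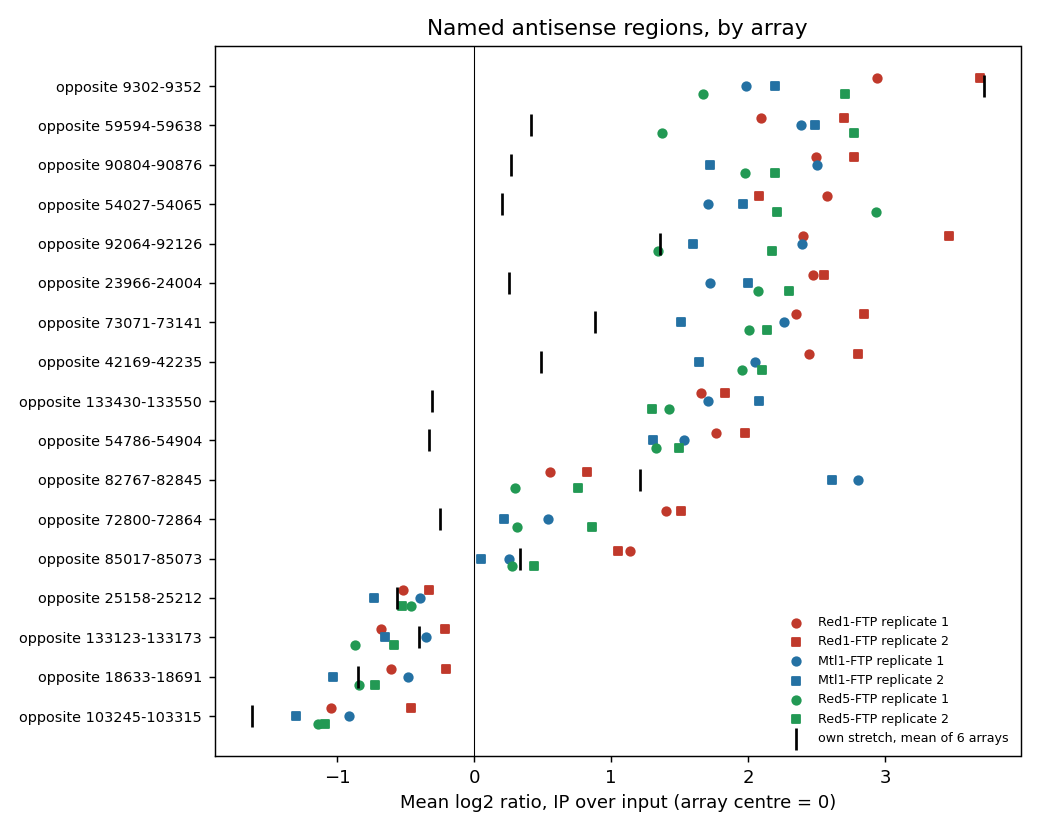
Mean log2 ratio of IP over input (horizontal axis) of the named antisense regions, labelled by the probe numbers of the stretch they lie opposite to, with a point per array, coloured by bait and square for replicate 2, and a black bar for the mean of the stretch itself. The region opposite 9302-9352 is the only one of the 8 highest whose stretch lies to the right of its mean, at 3.72, and the region opposite 82767-82845 has its Mtl1-FTP arrays at 2.80 and 2.62, apart from the rest.

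Differences between baits were few. Over all regions, 0.0249% had a limma adjusted p under 0.05 for Red1-FTP minus Mtl1-FTP, 0.0499% for Red1-FTP minus Red5-FTP and 0.150% for Mtl1-FTP minus Red5-FTP. Among the antisense regions 0, 0 and 1 did. At an unadjusted p under 0.05, 71 antisense regions (8.83%, against 5.06% of all regions) differed between Red1-FTP and Mtl1-FTP, 70 of them higher in Red1-FTP, and 49 (6.09%, against 4.91%) between Red1-FTP and Red5-FTP, all higher in Red1-FTP. Between Mtl1-FTP and Red5-FTP these were 12 (1.49%, against 6.43%). The median difference over antisense regions was 0.34 for Red1-FTP minus Mtl1-FTP, 0.32 for Red1-FTP minus Red5-FTP and 0.00 for Mtl1-FTP minus Red5-FTP, against 0.14, 0.15 and 0.03 over all regions. Within slides, Red1-FTP minus Red5-FTP had a median of 0.28 on slide 1, with 719 of 804 regions higher in Red1-FTP, and of 0.37 on slide 2, with 722 higher. Red1-FTP minus Mtl1-FTP was 0.04 on slide 1, the only slide with both baits, with 440 regions higher in Red1-FTP, so the pooled difference from Mtl1-FTP was not found there. IP detection did not keep this order of Red1-FTP and Red5-FTP on both slides. Among member probes that were not on, Red1-FTP was above Red5-FTP on slide 1 (32.3 and 18.6%) and below it on slide 2 (30.2 and 39.95%). In log2 ratio, Red1-FTP was also above Red5-FTP over all densely tiled probes and over stretch probes, but not over quiet probes on slide 2. Over all densely tiled probes their mean log2 ratios were 0.43 and 0.26 on slide 1 and 0.42 and 0.31 on slide 2. Stretch probes had -0.27 and -0.53 on slide 1 and 0.01 and -0.11 on slide 2. Quiet probes that were not on had 0.78 and 0.73 on slide 1, and 0.41 and 0.43 on slide 2. The median of Red1-FTP minus Red5-FTP was 0.06 over quiet blocks and 0.25 over the opposite strands over the limit, against 0.32 over antisense regions.

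The antisense region that differed between Mtl1-FTP and Red5-FTP lay opposite sp40c_82767 to sp40c_82845. Its log2 ratios were 2.80 and 2.62 (Mtl1-FTP), 0.55 and 0.82 (Red1-FTP) and 0.30 and 0.76 (Red5-FTP), so that the Mtl1-FTP arrays did not overlap with the others. Mtl1-FTP minus Red5-FTP was 2.18 (limma adjusted p = 0.0349) and Red1-FTP minus Mtl1-FTP was -2.02 (limma adjusted p = 0.114). No antisense region was called between Mtl1-FTP and Red5-FTP when any one of the 4 arrays of this pair of baits was left out, nor in 6 of 13 other settings. The IP was detected at 76.9 and 74.4% of its 39 probes with Mtl1-FTP, 30.8 and 30.8% (Red1-FTP) and 25.6 and 46.2% (Red5-FTP). Its stretch moved with it, at 4.02 and 4.32 (Mtl1-FTP), -0.58 and 0.12 (Red1-FTP) and -0.78 and 0.19 (Red5-FTP), and what part the stretch has in the antisense value was not tested. The regions next in order of their unadjusted p lay opposite sp40c_85017 to sp40c_85073, with 1.14 and 1.05 (Red1-FTP), 0.26 and 0.05 (Mtl1-FTP) and 0.28 and 0.43 (Red5-FTP), and opposite sp40c_72800 to sp40c_72864, with 1.40 and 1.51 (Red1-FTP), 0.54 and 0.22 (Mtl1-FTP) and 0.31 and 0.86 (Red5-FTP). In both, the Red1-FTP arrays lay above all others, but the differences did not pass the adjustment (limma adjusted p = 0.831 for Red1-FTP minus Mtl1-FTP and 0.770 for Red1-FTP minus Red5-FTP in both).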

How the data were processed

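Agilent arrays with an IP (Cy5) and an input (Cy3) channel were used, and the labels gave the bait of each. The authors deposited scanner tables made with Agilent Feature Extraction 10.7.3.1, whose processed signals are intensities after background subtraction and dye normalization by that software. The deposited log ratio, a log10 of IP over input, comes with a deposited p-value per spot. The deposited detection calls (well above background, positive and significant) were used as given. The authors' value table holds log2 ratios that are 0 where the p-value is not below 0.05, and served as an alternative.

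Log2 of processed Cy5 over Cy3 was taken without a pseudocount or further loess, spots marked as outliers were left out (2 to 9 per array), and each array was set to a median of 0 over its non-control probes. Of the deposited tables, probe sequences, genes and positions were not used here, so regions are named by probe numbers. Detection contrasts used the regions chosen from all 6 arrays, and ratio contrasts those chosen from the 3 arrays of the other replicate number (802 regions for replicate 1 arrays and 733 for replicate 2 arrays). Each contrast is 1 value per array, and the sign-flip permutation test over arrays was exact and two-sided (64 sign patterns), with Benjamini-Hochberg values over 10 contrasts. Region means (at least 5 values) were fitted with limma 3.58.1 in R 4.3.3, with 3 bait coefficients and Benjamini-Hochberg adjustment over 4010 regions. Scripts ran in Python 3.11.15 and were tested on simulated data.

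Named regions are the 8 highest and 4 lowest means among members past the threshold with the same sign on 6 of 6 arrays, the 4 with the longest runs, and the 3 with the smallest p for a bait difference. The regions, lists and tests were chosen with earlier results of these data known. Alternatives changed the selection of regions, detection call, signal processing, centre, block and arrays.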

Additional observations from a re-analysis of the deposited data

Results flagged for a closer look

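The antisense region opposite sp40c_82767 to sp40c_82845 differed between baits by the test of the difference itself, with 2.18 for Mtl1-FTP minus Red5-FTP in log2 ratio. Its Mtl1-FTP arrays were at 2.80 and 2.62 and its Red5-FTP arrays at 0.30 and 0.76. The input was detected in 16.7% of the calls on its probes. The call was lost without either Mtl1-FTP array, without either Red5-FTP array and in 6 settings of the processing. No array stood far from the others in any of 27 groups of 6 array values tested.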

How the results depend on the processing

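Differences by stretch input level and between long and medium stretches kept their direction and the smallest possible exact p in all alternatives with 6 arrays. With 5 arrays the exact p cannot go below 0.0625, so no contrast could pass. Leaving out an array gave -3.11 to 0.82 percentage points for detection against quiet blocks, -2.68 to -2.16 for side A minus side B, 14.4 to 17 for stretch input level, -7.10 to -6.22 for long minus medium and 6.76 to 8.07 for local input. In log2 ratio these were -0.16 to 0.015, -0.022 to 0.0070, 0.33 to 0.46, -0.26 to -0.22 and 0.12 to 0.19. Enriched members were 48.3 to 61.4%, depleted 0.745 to 3.27% (lowest without Mtl1-FTP replicate 2), Mtl1-FTP minus Red5-FTP calls 0 to 1, calls against Red1-FTP 0 to 0, and regions with a run 48 to 92 (highest without Red5-FTP replicate 1).

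Detection against quiet blocks was 1.33 points without bridging, 9.10 with the positive and significant call, 0.15 with all probes not on and 0.14 with stretches chosen from the other replicate number. Detection at side A minus side B was -1.82 with no on probe on the other strand (exact p = 0.125), -0.49 with input detected on no array and -1.46 with stretches chosen from the other replicate number. The ratio at side A minus side B was -0.053 with stretches of 30 or more probes, -0.043 without bridging and -0.024 with stretches chosen from all 6 arrays, each negative on 6 of 6 arrays with the smallest exact p (0.03125). It turned to 0.025 without the outer 3 probes, 0.0074 for probes with input detected on none of the 3 choosing arrays, 0.015 before dye normalization, 0.0013 with normexp and loess, 0.11 with probes detected in at least 1 channel and 0.017 in the authors' value table. The ratio by local input was 0.16 with at most 10% on, 0.093 with no on probe, 0.16 with 30 or more probes, 0.080 in the value table and -0.012 with detected probes alone.

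Enriched members were 30.7% with normexp and the median as centre and 33.2% with the mean as centre. Depleted members were 8.08% with normexp, 8.58% with normexp and loess, 23.3% with the mean as centre, 1.67% with detected probes alone, 5.10% in the value table, 4.02% without bridging and 1.62% with slide as a random block. Mtl1-FTP minus Red5-FTP called 0 members before dye normalization, with normexp and loess, with detected probes alone, in the value table, with no on probe and without bridging, and Red1-FTP minus Mtl1-FTP called 1 with the slide block. Regions with a run were 17 with at most 10% on, 1 with no on probe, 29 with 30 or more probes, 364 with the positive and significant call, and 99 with stretches chosen from the other replicate number and the IP of replicate 2. Causes of these changes were not tested. Deviations of same-numbered arrays correlated at -0.44 (Red1-FTP and Mtl1-FTP), 0.54 (Red1-FTP and Red5-FTP) and -0.35 (Mtl1-FTP and Red5-FTP). Only Red1-FTP and Red5-FTP shared a slide at both replicate numbers, so these values do not settle whether the numbers pair the samples. With the replicate block 57.1% of members were enriched, 2.11% depleted, and 0, 0 and 1 differed between baits. Of 134 mean log2 ratios of named regions under alternatives, 2 no longer passed (opposite sp40c_85017 to sp40c_85073, with normexp and the median as centre and with the mean as centre). Probes near background in the input limit all ratios, since their denominator is an estimate of the error. Most member probes on each array were below the call in the IP as well, which limits the numerator of their ratios too.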
